A study of Mus musculus with 18 samples.

Results

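The transcripts of Tnf and of 9 genes of its receptors and of the NF-kB feedback circuit were followed in sorted epidermal cells of mice with a psoriasis-like disease. These 10 genes, Tnf, Tnfrsf1a, Tnfrsf1b, Nfkbia, Tnfaip3, Tnip1, Birc3, Nfkb1, Nfkb2 and Relb, were picked by gene symbol with earlier results of these data known, and they are 10 of the 23951 genes with an FPKM value (fragments per kilobase of transcript, scaled to library depth). DKO* mice carry floxed alleles (f/f) of the AP-1 genes c-Jun and JunB, a tamoxifen-inducible Cre driven by the basal keratinocyte K5 promoter (K5-Cre-ERT), and the mT/mG reporter, which turns from Tomato to GFP upon recombination. Control mice (Co) carry the K5-driven Cre and the reporter, and their c-Jun and JunB loci are wild-type or heterozygous. Both genotypes received 4 daily injections of 2 mg tamoxifen at 8 weeks of age, and ear skin was taken at day 7. Cells negative for CD45 and high for CD49f were sorted into stem cells of the hair follicle bulge (HF-SCs, CD34+) and basal keratinocytes (b-KCs, CD34-). Those of DKO* mice were further split into mutant GFP and non-mutant Tom cells, while the labels name no such split for Co. Each of the 6 groups had 3 libraries, from Co mice 810, 825 and 828 or DKO* mice 814, 815 and 817, so each mouse gave both cell types and each DKO* mouse gave all 4 DKO* populations.

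Tnf is a cytokine that binds 2 receptors, the broadly expressed Tnfrsf1a (TNFR1) and the more restricted Tnfrsf1b (TNFR2). Receptor signalling frees the NF-kB subunits, made from Nfkb1 (p105/p50), Nfkb2 (p100/p52), Relb and others, from their inhibitors, and NF-kB then switches on its own brakes: Nfkbia (I-kB alpha), which recaptures the subunits, and the ubiquitin-editing protein Tnfaip3 (A20) with its partner Tnip1 (ABIN-1). Birc3 (cIAP2) is a ubiquitin ligase of the receptor complex and is itself an NF-kB target. In skin, Tnf is a target of psoriasis treatment, and variants near TNFAIP3 and TNIP1 are known psoriasis risk loci.

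Promoters are shown first because NF-kB acts on its target genes through kB sites, which can lie in front of them. RefSeq windows, from a table of build GRCm38.p6, were found for 8 of the 10 genes, while Nfkb1 and Relb had no entry. The 250 bases before the start were searched on both strands for the NF-kB (kB) decamer consensus and for the AP-1 motif TGANTCA, which c-Jun and JunB can bind. Of these 8 genes, 4 held a kB match, Tnfaip3, Tnip1, Nfkbia and Nfkb2, in 6 of 11 windows, against 7.25% of 32851 windows of the same length. An AP-1 match was found in 2 of the 11 windows, 1 of Tnfaip3 and 1 of Nfkb2, against 6.75% of windows. One window of each of the 4 genes is printed, 5′ to 3′ on the strand of the gene, and capitals mark the matches. The AP-1 match of Nfkb2 lay in a window of another start, which is not printed. Each was found at 1 place in NCBIM37 (mm9), the build of the FPKM values: Tnfaip3 at chr10:18735217-18735466 (minus strand), Tnip1 at chr11:54776443-54776692 (minus), Nfkbia at chr12:56593635-56593884 (minus) and Nfkb2 at chr19:46378977-46379226 (plus).
Tnfaip3: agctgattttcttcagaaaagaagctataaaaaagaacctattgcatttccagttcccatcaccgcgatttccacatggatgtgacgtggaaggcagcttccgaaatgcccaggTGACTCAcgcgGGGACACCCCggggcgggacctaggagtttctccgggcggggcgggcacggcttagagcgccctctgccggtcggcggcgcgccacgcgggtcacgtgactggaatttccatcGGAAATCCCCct
Tnip1: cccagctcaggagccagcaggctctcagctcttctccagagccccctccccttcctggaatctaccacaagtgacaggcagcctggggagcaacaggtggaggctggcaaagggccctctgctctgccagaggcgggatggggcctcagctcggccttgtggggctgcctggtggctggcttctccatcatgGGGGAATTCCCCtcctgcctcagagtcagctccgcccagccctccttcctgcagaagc
Nfkbia: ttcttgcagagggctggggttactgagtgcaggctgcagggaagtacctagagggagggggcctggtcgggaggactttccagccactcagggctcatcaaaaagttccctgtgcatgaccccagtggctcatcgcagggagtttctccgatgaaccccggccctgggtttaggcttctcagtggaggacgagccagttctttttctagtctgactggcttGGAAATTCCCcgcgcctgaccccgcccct
Nfkb2: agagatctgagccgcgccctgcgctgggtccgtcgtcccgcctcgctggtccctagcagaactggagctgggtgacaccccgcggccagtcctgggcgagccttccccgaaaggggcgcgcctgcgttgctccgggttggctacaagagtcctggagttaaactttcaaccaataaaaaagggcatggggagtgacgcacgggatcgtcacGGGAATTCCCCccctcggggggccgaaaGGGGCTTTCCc
In Tnfaip3, counted back from the start, the kB matches lay at bases -125 to -116 and -12 to -3, and the AP-1 match lay at -136 to -130, close to the first kB match. In Tnip1 overlapping kB matches spanned -58 to -47, in Nfkbia the kB match lay at -29 to -20, and in Nfkb2 the matches spanned -39 to -29 and -11 to -2. The windows of Tnf, Tnfrsf1a, Tnfrsf1b and Birc3 held neither motif. A match is a run of letters and not a measured site.

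Libraries held an implied 16510000 to 26310000 reads, read from the steps of low FPKM values. Jun had 835 to 1086 FPKM in Co, 29.6 to 88.4 in GFP and 163 to 614 in Tom libraries, and Junb had 436 to 772, 37.2 to 77.5 and 208 to 402 FPKM, so both deleted genes were lowest in GFP cells, as labelled, and the Tom libraries lay between. Of 7 bulge markers, 6 were higher in HF-SC Co than in b-KC Co and 0 lower. Against Co of the same cell type, 3 of these 7 were lower in GFP and 5 in Tom cells among HF-SCs, against 1 and 4 among b-KCs, and 0 were higher. Of 6 basal keratinocyte markers, 1 or 2 were lower and 0 higher in each DKO* population. Krt14 was listed at exactly 0 in 3 b-KC libraries of DKO* mice and Krt15 in 1 HF-SC Co library, which can be failed estimates. The 17 endothelial markers, led by Plvap, Ackr1 and Sele, summed to 955 to 2784 FPKM in HF-SC Tom, 96.2 to 157 in HF-SC Co, 2.79 to 47.7 in HF-SC GFP and 2.18 to 13.1 in all b-KC libraries. The 14 leukocyte markers summed to 5.80 to 14.1 FPKM in Co and 108 to 813 in DKO* libraries, most of it Cd74, which keratinocytes can also express. Of 4 melanocyte markers tested, HF-SC GFP had 3 above the level of its controls (sums over 5 markers, tested or not, of 5.26 to 15.9 against 2.71 to 4.51 FPKM). Ptprc, the gene of CD45, reached at most 0.946 FPKM. The part of these markers in the results below was not tested unless a value is given. In bulk samples, fewer cells of a type and less RNA per cell cannot be told apart.

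Among the 10 genes, those called in HF-SCs of DKO* mice were all higher than in Co, and those called in b-KCs included higher and lower ones. A change is called here at an adjusted p-value under 0.05 (limma on log2(FPKM + 1), Benjamini-Hochberg), and all 10 genes were among the 12751 tested. In HF-SC GFP against HF-SC Co, 5 of 10 genes were higher and 0 lower, where 38.5% of all genes were called, 18.5% of all genes higher and 20.0% lower. In HF-SC Tom against HF-SC Co, 7 of 10 were higher and 0 lower, against 44.4% called, 22.3% higher and 22.1% lower. The 7 include Tnfrsf1b, which reached the 1 FPKM needed for testing only in HF-SC Tom libraries, where it was high. It is also in the count for HF-SC Tom by the stricter rule below. In b-KC GFP against b-KC Co, 4 were higher and 1 lower, with 41.6% of all genes called, 20.3% higher and 21.3% lower. The counts of 5 in HF-SC GFP and in b-KC GFP, in either direction, are both near the background. In b-KC Tom against b-KC Co, 3 were higher and 4 lower, with 45.9% called, 22.6% higher and 23.3% lower. The median log2 fold change of the 10 genes was 0.60, 0.98, 0.33 and 0.20 in these 4 comparisons, and that of all genes tested lay between -0.05 and -0.02. By a stricter rule, an adjusted p under 0.01 and a log2 change of 2 or more either way, the counts were 1, 2, 0 and 0 of 10, where 3.07%, 4.09%, 1.87% and 2.75% of all genes passed. The 4 comparisons share their controls within a cell type and their mice within DKO*.

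**Figure D1:**
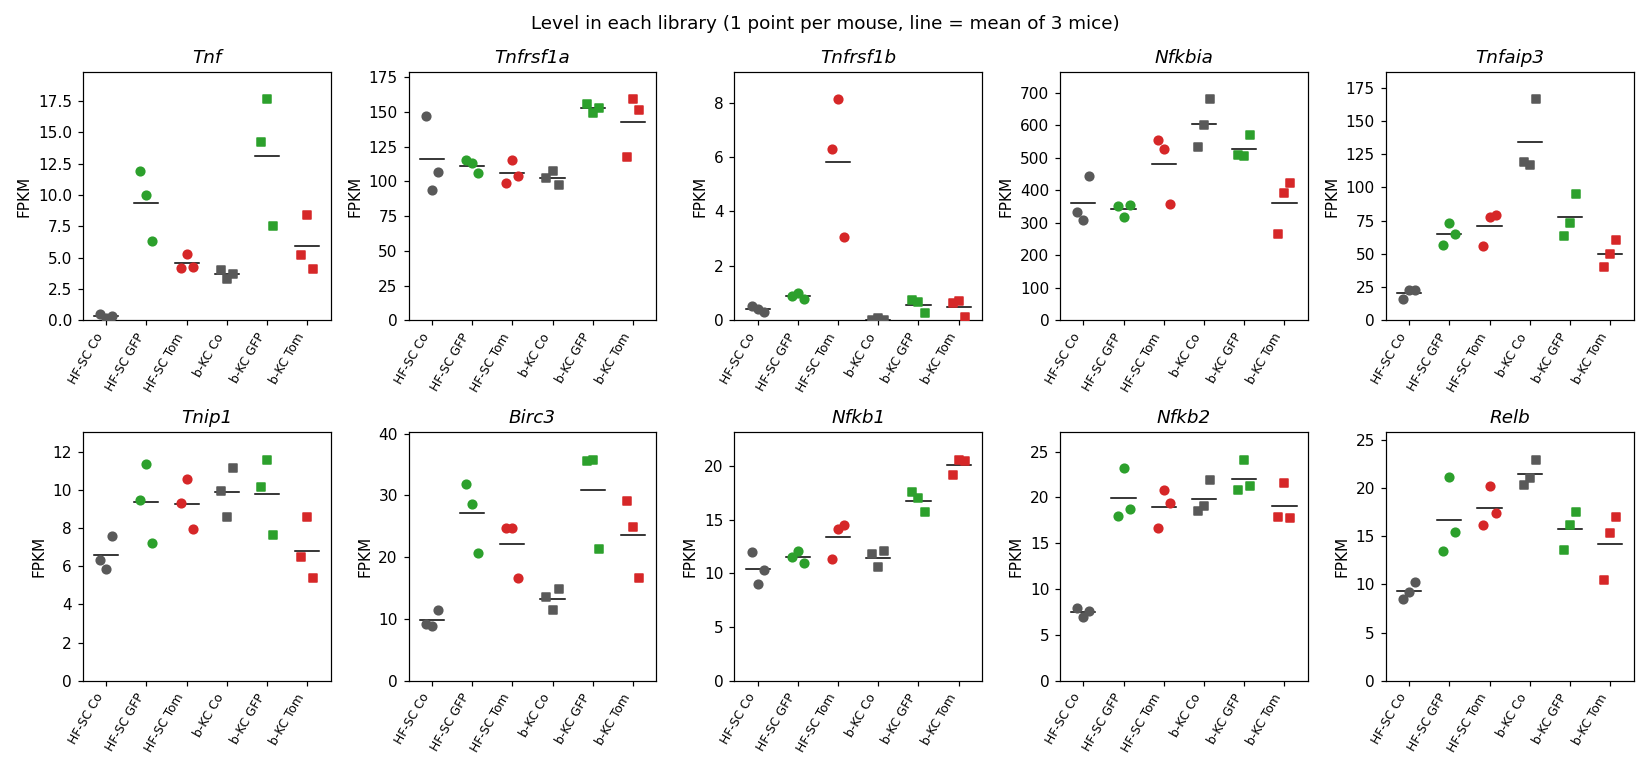
FPKM of each of the 10 genes (y axis, from 0) in the 6 groups (x axis), with 1 point per mouse and a line at the mean of 3 mice; circles are HF-SCs, squares b-KCs, grey Co, green GFP and red Tom. Tnfaip3, Nfkb2 and Relb were lowest in HF-SC Co, and Tnfaip3 reached its highest level, 166 FPKM, in b-KC Co.

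Tnf (chromosome 17, 35336326 to 35338952, minus strand, NCBIM37) was low in control bulge cells and rose in both DKO* fractions. In the order of mice given above, HF-SC Co libraries read 0.502, 0.194 and 0.372 FPKM, GFP libraries 11.9, 9.97 and 6.34, and Tom libraries 4.21, 5.29 and 4.22. For b-KCs the Co libraries read 4.04, 3.34 and 3.67 FPKM, GFP libraries 14.2, 17.6 and 7.51, and Tom libraries 5.22, 8.37 and 4.13. Every DKO* library exceeded every control library of its cell type, and GFP libraries were above Tom libraries of the same mouse in all 6 pairs. The mean of HF-SC GFP, 9.40 ± 2.82 FPKM (SD, n = 3), was 26.4 times the 0.356 ± 0.154 of HF-SC Co (log2 fold change 2.91, SE 0.27, adjusted p = 1.09e-06), and that of HF-SC Tom was 12.8 times (2.04, SE 0.27, adjusted p = 2.63e-05). HF-SC Co held only an implied 5.94 to 16.9 reads of Tnf, so these ratios are imprecise. In b-KC GFP the level was 3.56 times that of Co (log2 fold change 1.52, SE 0.27, adjusted p = 0.000627). In b-KC Tom it did not pass (0.52, 95% confidence interval -0.07 to 1.10, adjusted p = 0.134), although without mouse 817 it did (0.71, adjusted p = 0.00459). Lta and Ltb, the lymphotoxin genes beside Tnf on the chromosome, had at most 0.130 and 0.273 FPKM in any library (named after their values were seen).

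Mutant cells held more Tnf transcript than their non-mutant neighbours in each mouse. The ratio of GFP to Tom was 2.83, 1.88 and 1.50 for HF-SCs, and 2.72, 2.11 and 1.82 for b-KCs, in mice 814, 815 and 817. The fit that treats libraries as independent did not call this (log2 difference 0.87, adjusted p = 0.0641 in HF-SCs, and 1.00, adjusted p = 0.0825 in b-KCs). Treating the mouse as a random block gave an adjusted p of 0.00974 for HF-SCs and 0.0103 for b-KCs, while a fixed block over the 2 fractions alone gave 0.0803 and 0.0321, so the HF-SC difference passed with the random block and not with the fixed one. Mouse 817 had the lowest Tnf of the GFP libraries in both cell types, and without it the difference passed in both (adjusted p = 0.00148 and 0.00311).

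The receptors behaved unlike each other. Tnfrsf1a (chromosome 6, 125299380 to 125312502, plus strand) was abundant everywhere: HF-SC Co libraries read 147, 93.7 and 107 FPKM, GFP libraries 115, 113 and 106, and Tom libraries 98.7, 115 and 104. Its b-KC values were 103, 108 and 97.6 FPKM for Co, 156, 149 and 152 for GFP, and 117, 159 and 151 for Tom. HF-SC groups overlapped, while the b-KC fractions of DKO* mice lay above every b-KC Co library. It rose in b-KC GFP (log2 fold change 0.57, SE 0.15, adjusted p = 0.00817) and b-KC Tom (0.46, SE 0.15, adjusted p = 0.0221). In HF-SCs it did not pass, with differences of -0.03 (95% confidence interval -0.36 to 0.29) in GFP and -0.11 (-0.43 to 0.22) in Tom. The b-KC GFP call was lost without mouse 815 (adjusted p = 0.0514) and the b-KC Tom call without mouse 828, 815 or 817 (0.0884, 0.159 and 0.0619).

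Tnfrsf1b (chromosome 4, 144803366 to 144836773, minus strand) was low in keratinocytes and high in HF-SC Tom libraries, which also carried the most endothelial RNA. Its HF-SC values were 0.546, 0.436 and 0.301 FPKM for Co, 0.893, 1.00 and 0.788 for GFP, and 6.29, 8.11 and 3.05 for Tom. In b-KC Co it was listed at 0 in mouse 810 and had 0.0719 and 0.00997 FPKM in the other two, where 3 reads are worth 0.0339 to 0.0386 FPKM. The b-KC GFP libraries read 0.741, 0.670 and 0.258 FPKM, and the Tom libraries 0.624, 0.722 and 0.123. HF-SC Tom thus stood above all other groups without overlap. Only its 3 libraries reached 1 FPKM, and HF-SC GFP of mouse 815 fell just short at 0.9998. A gene needed 1 FPKM in 3 libraries to be tested, so Tnfrsf1b was tested only through the group where it was high. The log2 fold change of HF-SC Tom over Co was 2.18 (SE 0.24, adjusted p = 3.44e-06) and that of HF-SC GFP against HF-SC Tom was -1.77 (SE 0.24, adjusted p = 8.37e-05). All 17 endothelial markers stood above Co (median log2 fold change 3.65) and above GFP in HF-SC Tom, and Tnfrsf1b and the endothelial sum were both lowest in mouse 817 among the HF-SC Tom libraries. The part of endothelial RNA in the Tnfrsf1b values was not tested.

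In the other DKO* populations Tnfrsf1b was lower than in HF-SC Tom. In each of them mouse 817 had both the lowest endothelial sum and the lowest Tnfrsf1b. Its sums were 2.79 FPKM in HF-SC GFP against 34.2 and 47.7 in mice 814 and 815, 2.18 in b-KC GFP against 7.97 and 8.01, and 6.29 in b-KC Tom against 10.9 and 13.1. The sums of all b-KC Tom libraries also lay above those of b-KC Co, 2.25 to 4.18 FPKM. Between HF-SC GFP and Co the order differed. Every HF-SC GFP library had more Tnfrsf1b than every HF-SC Co library, whereas 14 of 17 endothelial markers were lower in HF-SC GFP and 0 higher. That difference did not pass (0.41, 95% confidence interval -0.09 to 0.91, adjusted p = 0.185), but passed without mouse 817 (adjusted p = 0.00808) and in a fit of these groups alone (0.0415). In b-KC GFP and b-KC Tom every library also exceeded every b-KC Co library, and the differences of 0.59 (adjusted p = 0.0581) and 0.51 (adjusted p = 0.0878) missed the threshold. With the mouse as a random block b-KC GFP passed (adjusted p = 0.0373). Without mouse 817, with a pseudocount of 0.1, or in a fit of the compared groups alone both passed (adjusted p of 0.000237, 0.00185 and 0.0138 for GFP and 0.000325, 0.00310 and 0.0285 for Tom). These b-KC levels were all under 1 FPKM, and the part of endothelial RNA in them was not tested.

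**Figure D2:**
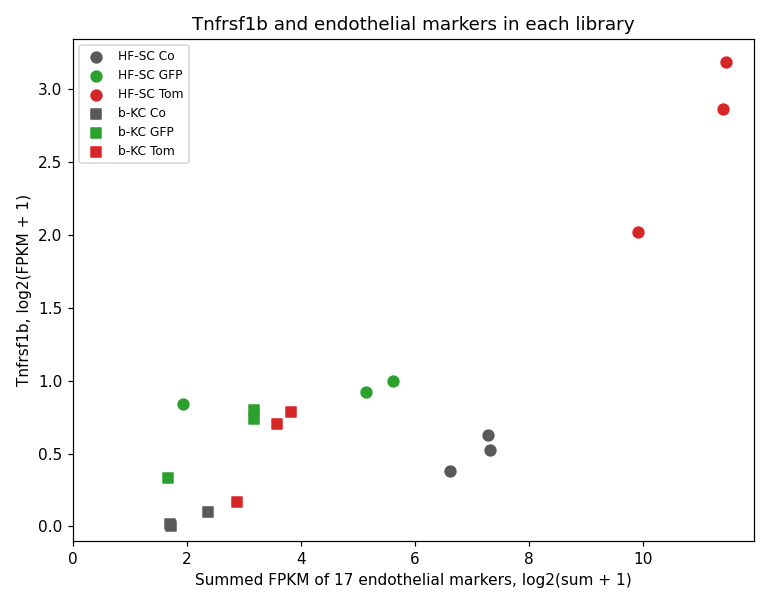
Tnfrsf1b as log2(FPKM + 1) (y axis) against the summed FPKM of 17 endothelial markers as log2(sum + 1) (x axis), 1 point per library, colours and shapes by group as in the legend. The 3 HF-SC Tom libraries lie apart at the upper right, and the HF-SC Co libraries have larger endothelial sums but less Tnfrsf1b than the HF-SC GFP libraries. Within each DKO* population mouse 817 is lowest on both axes, and it was also lowest there for Birc3 and Tnip1.

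Tnfaip3 (chromosome 10, 18720716 to 18735463, minus strand) rose in bulge cells and fell in basal keratinocytes. Levels in HF-SCs were 15.9, 22.7 and 23.0 FPKM for Co, 57.0, 73.3 and 65.2 for GFP, and 55.9, 77.7 and 79.4 for Tom. Levels in b-KCs were 119, 117 and 166 FPKM for Co, 63.8, 73.6 and 95.1 for GFP, and 40.4, 49.7 and 60.5 for Tom. No DKO* library of either fraction overlapped its controls, with opposite directions in the cell types. In HF-SCs the level was 3.17 times that of Co in GFP (log2 fold change 1.63, SE 0.21, adjusted p = 2.14e-05) and 3.46 times in Tom (1.74, SE 0.21, adjusted p = 8.78e-06). In b-KCs it fell to 0.578 times in GFP (log2 fold change -0.78, SE 0.21, adjusted p = 0.00791) and to 0.375 times in Tom (-1.40, SE 0.21, adjusted p = 9.01e-05). The fall in b-KC GFP was lost without mouse 828 (-0.62, adjusted p = 0.0564) or mouse 815 (-0.76, adjusted p = 0.0624). Within b-KCs, GFP held 1.58, 1.48 and 1.57 times the Tnfaip3 of Tom in mice 814, 815 and 817, a difference of 0.61 that did not pass in the unblocked fit (adjusted p = 0.181) and passed with a random (0.0368) or fixed block (0.0459). Of 4 suprabasal keratinocyte markers, HF-SC GFP had 2 higher and 0 lower than Co and HF-SC Tom 2 and 1, while each b-KC fraction had 0 higher and 2 lower. Their median log2 fold changes were 1.74, 0.40, -0.76 and -1.30 in that order. Among b-KC Tom libraries of mice 814, 815 and 817 their sums, 3267, 1918 and 1322 FPKM, ran opposite to Tnfaip3. Among HF-SC Tom libraries the sums, 531, 620 and 688 FPKM, ran with it, and the order was mixed in both GFP groups. The part of these markers in the Tnfaip3 values was not tested.

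Nfkbia (chromosome 12, 56590398 to 56593634, minus strand), the most abundant of the 10 by FPKM, passed as higher in 0 of the 4 DKO* populations. HF-SC libraries read 334, 307 and 443 FPKM for Co, 351, 317 and 356 for GFP, and 555, 527 and 357 for Tom. Those of b-KCs read 533, 599.8 and 679 FPKM for Co, 508, 504 and 569 for GFP, and 265, 392 and 423 for Tom. It was lower in every b-KC Tom library than in any b-KC Co library, while all other DKO* groups overlapped their controls. The fall in b-KC Tom was -0.77 (SE 0.21, adjusted p = 0.00785), lost without mouse 814, whose library was lowest (-0.56, adjusted p = 0.0547). The difference in HF-SC Tom of 0.40 did not pass (95% confidence interval -0.05 to 0.84, adjusted p = 0.137) and passed without mouse 817 (0.60, adjusted p = 0.0199). HF-SC GFP was lower than HF-SC Tom by a difference of -0.47 that did not pass (adjusted p = 0.226) and passed without mouse 817 (0.0350).

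Tnip1 (chromosome 11, 54724289 to 54776419, minus strand) changed within a narrow range. Levels in HF-SCs were 6.36, 5.86 and 7.58 FPKM for Co, 9.50, 11.4 and 7.21 for GFP, and 9.35, 10.6 and 7.96 for Tom. The b-KC libraries read 9.98, 8.60 and 11.2 FPKM for Co, 10.2, 11.6 and 7.66 for GFP, and 6.49, 8.61 and 5.40 for Tom. Of the 4 DKO* populations, HF-SC Tom did not overlap its control and the other 3 did. The differences of 0.43 in HF-SC GFP and 0.44 in HF-SC Tom did not pass (adjusted p = 0.0856 and 0.0758), but did with the mouse as a random block (0.0411 and 0.0355) and without mouse 817 (0.00624 and 0.00941). In b-KC Tom it was lower by a log2 fold change of -0.49 (SE 0.19, adjusted p = 0.0460), a call lost without the filter on low values (0.0851) and without mouse 810, 825, 828, 814 or 817 (0.109, 0.0545, 0.165, 0.144 and 0.0643).

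Birc3 (chromosome 9, 7848699 to 7873186, minus strand) rose in all 4 DKO* populations. HF-SC values were 9.18, 8.78 and 11.5 FPKM for Co, 31.8, 28.7 and 20.8 for GFP, and 24.7, 24.8 and 16.7 for Tom. Values of b-KCs were 13.5, 11.5 and 14.8 FPKM for Co, 35.6, 35.8 and 21.4 for GFP, and 29.1, 24.9 and 16.6 for Tom. No DKO* library overlapped the controls of its cell type, and mouse 817 was lowest of the DKO* mice in each population. The log2 fold change was 1.36 (SE 0.24, adjusted p = 0.000339) in HF-SC GFP, 1.08 (adjusted p = 0.00183) in HF-SC Tom, 1.13 (adjusted p = 0.00179) in b-KC GFP and 0.75 (adjusted p = 0.0171) in b-KC Tom. The b-KC Tom call was lost without mouse 825, 814 or 815 (adjusted p = 0.0787, 0.0882 and 0.0918).

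The subunit genes Nfkb2 and Relb, both of the alternative NF-kB pathway, rose in bulge cells. Nfkb2 (chromosome 19, 46379227 to 46386580, plus strand, overlapping Psd on the other strand) measured 7.89, 6.98 and 7.62 FPKM for HF-SC Co, 17.96, 23.3 and 18.8 for GFP, and 16.7, 20.9 and 19.4 for Tom. The b-KC levels were 18.5, 19.03 and 21.9 FPKM for Co, 20.8, 24.1 and 21.3 for GFP, and 17.8, 21.6 and 17.7 for Tom. HF-SC Co was the single low group, and the other 5 groups overlapped one another. Nfkb2 rose in HF-SC GFP (log2 fold change 1.30, SE 0.13, adjusted p = 1.57e-06) and HF-SC Tom (1.23, SE 0.13, adjusted p = 2.23e-06). In b-KCs it did not pass, with differences of 0.15 (95% confidence interval -0.12 to 0.42) in GFP and -0.06 (-0.33 to 0.21) in Tom.

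Relb (chromosome 7, 20191566 to 20214787, minus strand) measured 8.45, 9.25 and 10.2 FPKM for HF-SC Co, 13.4, 21.2 and 15.4 for GFP, and 16.2, 20.3 and 17.4 for Tom. The b-KC levels were 20.4, 21.1 and 23.0 FPKM for Co, 13.5, 16.2 and 17.6 for GFP, and 10.4, 15.4 and 16.97 for Tom. As for Tnfaip3, DKO* libraries lay above the controls in HF-SCs and below them in b-KCs, without overlap. It rose in HF-SC GFP (log2 fold change 0.76, SE 0.18, adjusted p = 0.00346) and HF-SC Tom (0.88, SE 0.18, adjusted p = 0.000992), and fell in b-KC Tom (-0.58, SE 0.18, adjusted p = 0.0148). The last call was lost without mouse 828 or 814 (adjusted p = 0.0660 and 0.0558). In b-KC GFP the difference of -0.43 did not pass (adjusted p = 0.0651) but did with the mouse as a random block (0.0445), in a fit of these groups alone (0.0283) and without mouse 817 (0.0346).

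Nfkb1 (chromosome 3, 135247619 to 135354511, minus strand) rose in basal keratinocytes. HF-SC libraries read 11.9, 8.98 and 10.3 FPKM for Co, 11.5, 12.1 and 10.9 for GFP, and 11.3, 14.2 and 14.5 for Tom. Those of b-KCs read 11.8, 10.6 and 12.0 FPKM for Co, 17.6, 17.05 and 15.7 for GFP, and 19.1, 20.6 and 20.5 for Tom. The 3 b-KC groups did not overlap, with Tom highest. It rose in b-KC GFP (log2 fold change 0.51, SE 0.12, adjusted p = 0.00345) and b-KC Tom (0.76, SE 0.12, adjusted p = 0.000137). In HF-SC Tom a rise of 0.33 passed (SE 0.12, adjusted p = 0.0345) although its libraries overlapped Co, and it was lost in a fit of these groups alone (0.179) and without mouse 825, 828, 815 or 817 (0.175, 0.0969, 0.185 and 0.0937). In HF-SC GFP the difference of 0.14 did not pass (adjusted p = 0.380).

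**Figure D3:**
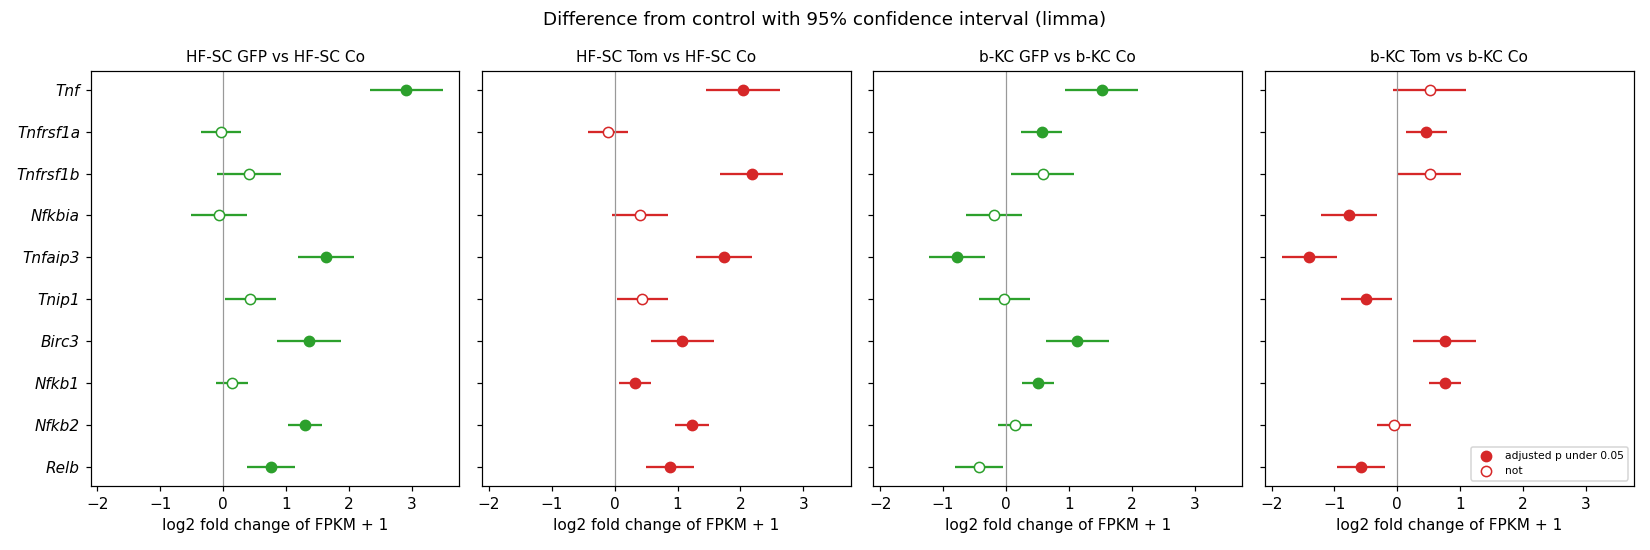
Log2 fold change of FPKM + 1 against Co (x axis) for each gene (y axis) in the 4 DKO* populations, with 95% confidence intervals from limma; filled points passed at an adjusted p under 0.05. Tnf reached 2.91 in HF-SC GFP, Birc3 was filled in each panel, and Tnfaip3 lay at 1.63 and 1.74 in HF-SCs and at -0.78 and -1.40 in b-KCs.

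Control bulge cells had less Tnfaip3, Tnf, Nfkb2, Relb, Nfkbia and Tnip1 transcript than control basal cells. In HF-SC Co against b-KC Co, 6 of 10 genes were lower and 0 higher, where 51.9% of all genes were called, 27.3% lower and 24.6% higher, and 1 of 10, Tnfaip3, passed the stricter rule against 5.65% of all genes. The count of 6 in either direction is near the background. The 4 suprabasal keratinocyte markers were lower in HF-SC Co as well, with sums of 306 to 429 FPKM against 3576 to 4537 in b-KC Co. All 5 fibroblast markers tested were higher, with sums over 6 markers, tested or not, of 45.9 to 95.5 against 4.28 to 6.16 FPKM. The part of either list in these differences was not tested. On the log2(FPKM + 1) scale Tnfaip3 differed most (-2.65, SE 0.21, adjusted p = 6.08e-08, b-KC Co at 6.53 times HF-SC Co), followed by Tnf (-1.79, adjusted p = 5.82e-05), Nfkb2 (-1.29, adjusted p = 7.00e-07) and Relb (-1.13, adjusted p = 8.31e-05). As a ratio of mean FPKM, without the added 1, Tnf was further apart than Tnfaip3, at 10.3 times. Nfkbia (-0.75, adjusted p = 0.00741) and Tnip1 (-0.52, adjusted p = 0.0320) were lower as well, the first without its call when mouse 825 was left out (0.0760) and the second when mouse 810, 825, 828 or 814 was (0.136, 0.0942, 0.0965 and 0.0636), when the filter was dropped (0.0573) or under median-ratio scaling (0.0721). Birc3 differed by -0.40 (adjusted p = 0.170), which passed with the mouse as a random block (0.0425), in a fit of both groups alone (0.0338) and without mouse 817 (0.0106), whose 4 libraries are all DKO* and enter only the shared estimate of the spread. Tnfrsf1b was 0.47 higher in HF-SC Co (adjusted p = 0.107), which passed with the block (0.0352), with a pseudocount of 0.1 (0.00230), in a fit of both groups alone (0.00301) and without mouse 817 (0.00211), and 16 of 17 endothelial markers were higher there too. Nfkb1 and Tnfrsf1a did not pass, with intervals of -0.38 to 0.12 and -0.17 to 0.47.

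The ratio of b-KC to HF-SC levels lay nearer 1 in DKO* mice for some of the genes and further from it for others. The mean level in b-KCs over that in HF-SCs went from 6.53 in Co to 1.19 in GFP and 0.707 in Tom for Tnfaip3. It went from 2.65 to 1.10 and 1.00 for Nfkb2 and from 2.31 to 0.945 and 0.793 for Relb, and for Tnf from 10.3 to 1.40 and 1.29. For Tnip1 it went from 1.50 to 1.05 and 0.735. For these 5 genes the b-KC and HF-SC libraries did not overlap in Co and overlapped in both GFP and Tom. The share of all genes with this pattern was not counted, and 51.9% of all genes tested were called between the Co groups. Nfkbia, at 1.67, 1.54 and 0.751, overlapped only in Tom, and Birc3, at 1.35, 1.14 and 1.07, overlapped in all 3 populations. Tnfrsf1a, at 0.885, 1.37 and 1.35, and Nfkb1, at 1.10, 1.46 and 1.50, overlapped in Co and lay apart in GFP and Tom, and Tnfrsf1b libraries did not overlap in any population. The difference between the changes of HF-SCs and b-KCs was tested as an interaction, in which the HF-SC change was the more positive for 4 of 10 genes in GFP and the more negative for 0, where 12.5% of all genes were called, 7.31% higher and 5.22% lower. In Tom, 7 of 10 were higher and 0 lower, where 15.8% of all genes were called, 10.3% higher and 5.58% lower. These 7 include Tnfrsf1b, which was tested only through its HF-SC Tom libraries. Tnfaip3 alone passed the stricter rule in each interaction, against 0.863% and 1.98% of all genes. Suprabasal markers summed to 640 to 1475 FPKM in HF-SC GFP, 531 to 688 in HF-SC Tom, 1772 to 2210 in b-KC GFP and 1322 to 3267 in b-KC Tom, with 3 of 4 higher in the GFP interaction and 0 in the Tom interaction. Of the 7 bulge markers, 1 was lower in the GFP interaction and 0 in the Tom interaction, and 0 were higher. The part of either list in these differences was not tested. Both interactions share the Co libraries that set the gap. For Tnfaip3 the difference was 2.41 (SE 0.29, adjusted p = 0.000169) in GFP and 3.14 (SE 0.29, adjusted p = 8.37e-06) in Tom. For Nfkb2 it was 1.15 (adjusted p = 0.000791) and 1.29 (adjusted p = 0.000229), and for Relb 1.19 (adjusted p = 0.00633, or 0.0635 without mouse 815) and 1.46 (adjusted p = 0.000995).

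The remaining differences between the cell types were less firm. For Tnf the value was 1.39 in GFP (adjusted p = 0.0276), lost without the filter (0.0661) and without mouse 810, 825, 828 or 814 (0.0931, 0.0904, 0.103 and 0.108), and 1.52 in Tom (adjusted p = 0.0137), lost without the same mice (0.0514, 0.0560, 0.0577 and 0.0537). In Tom, Nfkbia differed by 1.16 (adjusted p = 0.0140, lost at 0.0725, 0.0918 and 0.0983 without mouse 825, 814 or 815) and Tnip1 by 0.93 (adjusted p = 0.0284, lost at 0.112, 0.0727, 0.0797 and 0.112 without mouse 810, 825, 828 or 814, and at 0.0505 without the filter). Tnfrsf1b differed by 1.67 in Tom (adjusted p = 0.00289) beside 15 of 17 endothelial markers higher in the same term, and was lost with a pseudocount of 0.1 (1.36, adjusted p = 0.213). It was tested only through its HF-SC Tom libraries, where it was high. Tnfrsf1a and Nfkb1 pointed the other way without passing. Tnfrsf1a had -0.60 in GFP and -0.57 in Tom (adjusted p = 0.0795 and 0.0898, or 0.0336 and 0.0416 under a random mouse block), and Nfkb1 had -0.43 in Tom (adjusted p = 0.0996, or 0.0438 with the block). Birc3 did not pass in either (0.23 and 0.33, adjusted p = 0.671 and 0.584).

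**Figure D4:**
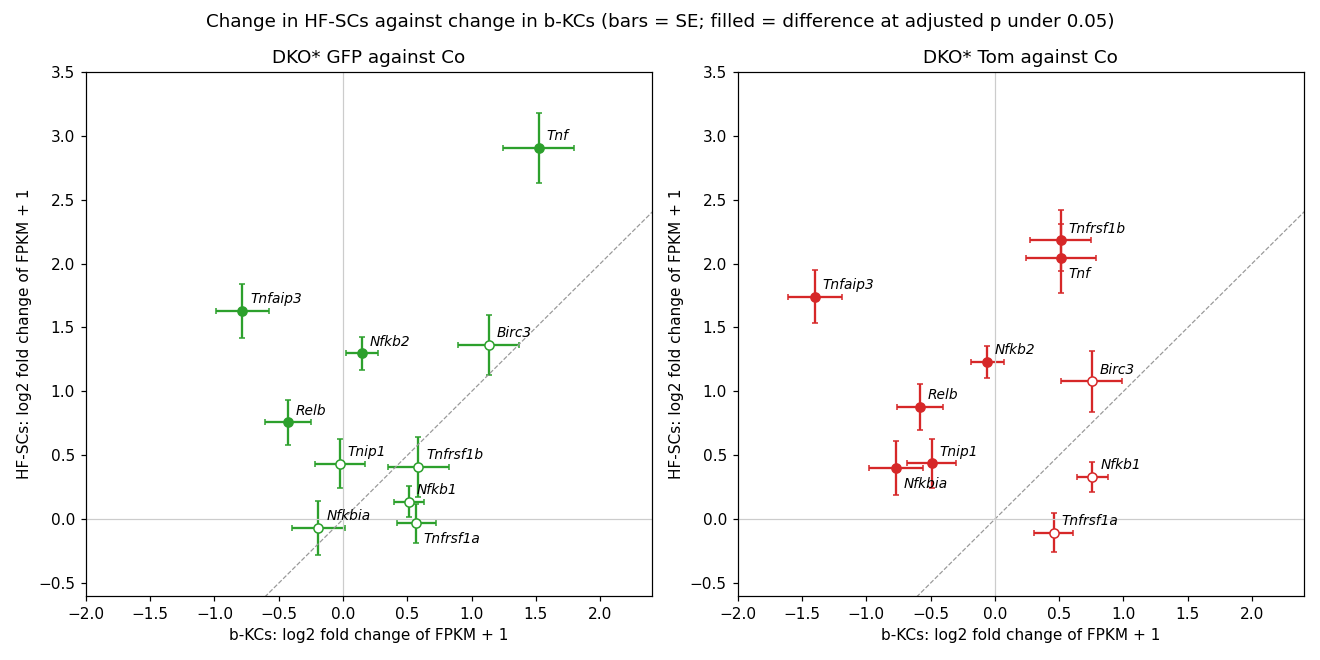
Log2 fold change of FPKM + 1 against Co in HF-SCs (y axis) and in b-KCs (x axis) for the 10 genes, GFP on the left and Tom on the right, with bars of 1 SE, a dashed line of equal change, and filled points where the difference passed at an adjusted p under 0.05. Tnfaip3 and Relb lie above 0 on the y axis and below 0 on the x axis in both panels, and Nfkb1 and Tnfrsf1a lie under the dashed line.

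Between GFP and Tom cells of the same mice, Tnfrsf1b, Tnf and Tnfaip3 passed in some fits, and Nfkbia in HF-SCs when mouse 817 was left out. In HF-SC GFP against HF-SC Tom, 1 of 10 genes passed, Tnfrsf1b, where 8.63% of all genes were called, 5.80% lower and 2.83% higher, and 0 passed the stricter rule, against 1.98%. Tnfrsf1b was tested only through the HF-SC Tom libraries, where it was high. In b-KC GFP against b-KC Tom 0 of 10 passed in limma, where 1.71% of all genes were called, 1.19% higher and 0.518% lower (0.0863% by the stricter rule), and 2 of 10, Tnf and Tnfaip3, passed with the mouse as a random or a fixed block, where 4.82% and 3.72% of all genes were called. At an unadjusted p under 0.05, 4 of 10 differed in b-KCs, Tnf, Tnfaip3, Nfkbia and Tnip1, against 11.5% of all genes, and 3 of 10 in HF-SCs, Tnfrsf1b, Tnf and Nfkbia, against 20.0%. The Nfkbia differences of GFP over Tom had opposite signs, 0.57 in b-KCs and -0.47 in HF-SCs. With the random block 2 of 10, Tnf and Tnfrsf1b, passed in HF-SCs, against 13.6% of all genes, and with the fixed block 1 of 10, Tnfrsf1b, against 4.93%.

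Around the 10 genes, other members of the pathway were read from lists chosen with earlier results known. Their shares called are given against Co, for GFP and then Tom cells, first of HF-SCs and then of b-KCs, and are read beside 38.5%, 44.4%, 41.6% and 45.9% of all genes. Of 5 further TNF superfamily ligands that could be tested (of 17), each HF-SC fraction had 3 higher and 1 lower, and each b-KC fraction 2 higher and 0 lower, or 80%, 80%, 40% and 40% of these 5 genes. Tnfsf9 (4-1BB ligand) rose from a mean of 2.39 FPKM in HF-SC Co to 12.6 in GFP (log2 fold change 2.01, SE 0.19, adjusted p = 9.88e-07), and Tnfsf13 (APRIL) from 0.365 FPKM in b-KC Co to 9.02 in b-KC GFP (2.79, SE 0.31, adjusted p = 1.60e-05). Eda, the ectodysplasin of hair follicle development, fell in HF-SC Tom (-1.48, SE 0.28, adjusted p = 0.000501). Tnfsf10 (TRAIL) rose in HF-SC Tom (1.67, SE 0.25, adjusted p = 6.30e-05), the libraries with the most endothelial RNA, and was higher there than in HF-SC GFP (log2 difference of GFP over Tom -1.54, adjusted p = 0.000474). It had at least 1.87 FPKM there and elsewhere reached 1 FPKM only in b-KC GFP, in too few libraries to be tested without HF-SC Tom. It is part of the 80% of HF-SC Tom.

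Of 16 further TNF receptor superfamily genes tested (of 26), HF-SC GFP had 5 higher and 1 lower, HF-SC Tom had 6 and 1, b-KC GFP had 6 and 4, and b-KC Tom had 3 and 5. These are 37.5%, 43.8%, 62.5% and 50% of the list, near the shares over all genes in HF-SCs and b-KC Tom. Ltbr, the lymphotoxin beta receptor and an activator of the alternative pathway, rose in all 4, from 8.44 FPKM in HF-SC Co to 30.5 in HF-SC Tom (log2 fold change 1.73, SE 0.15, adjusted p = 2.78e-07) and from 22.3 in b-KC Co to 48.4 in b-KC Tom (1.08, adjusted p = 3.90e-05). Tnfrsf23 rose in all 4 as well (0.73 to 1.80), and Eda2r in 3 of 4, without b-KC Tom (-0.06). Tnfrsf11b (osteoprotegerin), which was 51.9 FPKM in HF-SC Co and 2.12 in b-KC Co, fell in HF-SC Tom (-1.62, SE 0.20, adjusted p = 9.94e-06).

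Adaptors, kinases and ubiquitin enzymes of the receptors had medians from -0.19 to 0.07: of 26, HF-SC GFP had 4 higher and 1 lower, HF-SC Tom had 6 and 3, b-KC GFP had 4 and 7, and b-KC Tom had 4 and 6. The shares of 19.2%, 34.6%, 42.3% and 38.5% lay below those over all genes, except in b-KC GFP, where they were close. Ripk3, the kinase of necroptosis, rose in all 4 populations, from 3.75 FPKM in HF-SC Co to 17.7 in HF-SC Tom (log2 fold change 1.97, SE 0.18, adjusted p = 6.19e-07). Map3k14 (NIK), the kinase that starts the alternative pathway, also rose in all 4, by 0.76 to 1.28. Traf5 fell in all 4, from 7.50 to 3.92 FPKM in HF-SC Tom (-0.81) and from 8.17 to 1.23 in b-KC Tom (adjusted p = 2.11e-05). Traf1 rose in HF-SC Tom (1.20, adjusted p = 0.00234), where endothelial markers were highest, and not in HF-SC GFP (-0.04).

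Among 15 other NF-kB subunits, I-kB proteins and deubiquitinases, HF-SC GFP had 5 higher and 0 lower, HF-SC Tom had 5 and 2, b-KC GFP had 4 and 2, and b-KC Tom had 4 and 3, or 33.3%, 46.7%, 40% and 46.7%, near the shares over all genes. Bcl3, a nuclear I-kB protein that pairs with p50 and p52, had the largest change of these, from a mean of 1.84 FPKM in HF-SC Co to 25.5 in GFP and 28.6 in Tom (log2 fold changes 3.25 and 3.40, SE 0.18, adjusted p = 1.35e-08 and 6.81e-09). In b-KCs it went from 5.05 FPKM in Co to 45.7 and 47.7. Tnip3, a relative of Tnip1, rose in all 4 (1.19 to 2.02), Rel rose in HF-SC GFP (1.63, adjusted p = 0.000219), and Nfkbid rose in both HF-SC fractions (1.15 and 1.17) and passed in neither b-KC fraction (0.27 and -0.28).

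Of 8 genes of Tnf shedding and Tnf mRNA decay, each HF-SC fraction had 2 higher and 1 lower, b-KC GFP had 1 and 4, and b-KC Tom had 1 and 3, or 37.5%, 37.5%, 62.5% and 50% of the list. Zfp36 (tristetraprolin), which destabilises Tnf mRNA, was lower in all 4, from a mean of 465 FPKM in HF-SC Co to 266 in GFP (-0.81, adjusted p = 0.0239) and from 645 in b-KC Co to 182 in b-KC Tom (-1.90, adjusted p = 5.54e-05). Zc3h12a (Regnase-1), an RNase of inflammatory transcripts, rose in all 4, most in HF-SC GFP (2.39, SE 0.18, adjusted p = 1.62e-07). Rhbdf2 (iRhom2), a partner of the Tnf-shedding protease, rose in HF-SC GFP (1.34, adjusted p = 2.28e-05) and HF-SC Tom (0.74, adjusted p = 0.00287) and passed in neither b-KC fraction.

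Of 19 known NF-kB targets of epithelium tested (of 20), HF-SC GFP had 14 higher and 0 lower, HF-SC Tom had 17 and 1, b-KC GFP had 11 and 0, and b-KC Tom had 9 and 3, at medians of 1.82, 2.72, 1.37 and 0.88 (log2). These are 73.7%, 94.7%, 57.9% and 63.2% of the list, each above the share over all genes. Lcn2 (lipocalin-2), an antibacterial protein, went from 0.895 to 515 FPKM in HF-SC GFP (log2 fold change 7.98, SE 0.58, adjusted p = 1.09e-07). Il1a was higher in GFP than in Tom cells in both cell types (69.1 against 6.06 FPKM in HF-SCs, adjusted p = 1.50e-05, and 30.4 against 6.77 in b-KCs, adjusted p = 0.0171). Csf3 (G-CSF) showed the reverse in HF-SCs, with 7.23 FPKM in GFP and 81.9 in Tom (adjusted p = 4.20e-06), the latter beside the endothelial markers. Tnfaip2 rose in all 4, by 4.58 to 5.24.

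The patterns most like that of Tnf over the 18 libraries, by Pearson's r of log2(FPKM + 1), were those of Chil1 (0.970), Ccl20 (0.968), Pinlyp (0.968), Areg (0.968) and Deptor (0.957). Those most like Tnfaip3 were Relb (0.932), Arhgap27 (0.927), Rell1 (0.925), Stat5a (0.916) and Bhlhe40 (0.907). These are descriptions, since the libraries share mice, cell types and disease state.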

How the data were processed

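RNA-seq of 18 libraries (6 groups of 3 mice) was analysed, with groups and mouse numbers from the sample labels. The authors made non-directional SMART-Seq v4 and Nextera XT libraries, aligned single-end reads to mm9 (TopHat2 2.0.10, Bowtie 1.0.0) and deposited 1 FPKM value (Cufflinks 2.2.1 in the processing notes) per gene and library, scaled for length and depth. Without strand, reads of overlapping genes such as Nfkb2 and Psd cannot be told apart.

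A gene entered the test if 3 or more libraries had 1 FPKM or more (12751 of 23951). The test was limma 3.58.1 (R 4.3.3) on log2(FPKM + 1), with a mean per group, an eBayes trend, all 18 libraries in 1 fit and Benjamini-Hochberg adjustment within each of 9 comparisons. A fold change on this scale understates that of genes with low FPKM. The step was tested on simulated data. The members and lists were chosen with earlier results of these data known. Named were all 10 members, Jun and Junb, up to 4 genes per pathway list with the largest change in HF-SCs among those called without overlap, the leading markers, and the 5 genes most correlated with Tnf and with Tnfaip3.

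Same-numbered libraries come from the same mouse, and their deviations from the group means correlated at 0.0838 to 0.700 in 15 pairs. Fits with the mouse as a random block (consensus correlation 0.274) or, between GFP and Tom, as a fixed one stand beside those without it. Depth was implied by the spacing of low FPKM values among 6674 single-transcript genes. Of the 795 to 976 low values used per library, 76.9% to 81.6% fell within 0.1 of whole reads. The floor of 3 reads reflects counting error alone. Alternatives were a pseudocount of 0.1, no filter, stricter thresholds, fits of the compared groups alone, no trend, median-ratio scaling, blocking by mouse, and omission of each mouse in turn. Python 3.11.15, pandas 2.3.3, numpy 2.4.6 and matplotlib 3.10.9 were used for levels, promoters and plots.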

Additional observations from a re-analysis of the deposited data

Results flagged for a closer look

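In 11 combinations of gene and DKO* fraction the change from Co was more positive in HF-SCs than in b-KCs, tested by the interaction term in limma, 4 of 10 genes in GFP and 7 of 10 in Tom, where 7.31% and 10.3% of all genes were called in this direction. In GFP cells the log2 difference between the 2 changes was 2.41 for Tnfaip3, 1.39 for Tnf, 1.19 for Relb and 1.15 for Nfkb2. In Tom cells it was 3.14 for Tnfaip3, 1.67 for Tnfrsf1b, 1.52 for Tnf, 1.46 for Relb, 1.29 for Nfkb2, 1.16 for Nfkbia and 0.93 for Tnip1. The HF-SC Tom changes of the last 2 genes did not pass by themselves (0.40, adjusted p = 0.137, and 0.44, adjusted p = 0.0758), while their b-KC Tom changes of -0.77 and -0.49 did (adjusted p = 0.00785 and 0.0460). Leaving out single mice lost the calls of Tnf in both fractions (without 810, 825, 828 or 814), of Relb in GFP (without 815), and in Tom of Nfkbia (without 825, 814 or 815) and Tnip1 (without 810, 825, 828 or 814). Tnfrsf1b in HF-SC Tom stood beside a sum of 955 to 2784 FPKM of endothelial markers, and the part of these in its value was not tested. Only its HF-SC Tom libraries brought Tnfrsf1b into the test.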

How the results depend on the processing

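The groups hold 3 mice each, and low levels (Tnf in HF-SC Co, Tnfrsf1b in b-KCs) rest on few reads. By the stricter rule (adjusted p under 0.01, log2 change of 2 or more) the members passing fell to 1 for HF-SC GFP, 2 for HF-SC Tom, and 0 for b-KC GFP, for b-KC Tom and for HF-SC GFP against Tom, and to 1 for Co against Co and for both interactions. An adjusted p under 0.01 alone left 3 for b-KC Tom, where 30.8% of all genes passed, and 4 for the Tom interaction (8.05%). With the mouse as a random replicate block 2 members passed between GFP and Tom of HF-SCs and 2 of b-KCs, while the fixed block gave 1 and 2 (13.6% and 4.82% of all genes against 4.93% and 3.72%). Beside the calls given at each gene, the block changed no other call. Leaving out 1 mouse gave 5 to 7 members for HF-SC GFP (25.8% to 51.5% of all genes), 6 to 8 for HF-SC Tom (31.0% to 59.4%), 3 to 7 for b-KC GFP (20.5% to 59.4%, 3 without 815), 3 to 7 for b-KC Tom (30.0% to 57.6%, 3 without 814, 4 without 828), 1 to 3 for HF-SC GFP against Tom (3.33% to 22.9%, 3 without 817), 0 to 1 for b-KC GFP against Tom (0.00784% to 6.67%, 1 without 817), 4 to 8 for Co against Co (37.9% to 63.8%), 3 to 4 for the GFP interaction (3.35% to 30.8%) and 4 to 7 for the Tom interaction (7.04% to 25.4%, 4 without 825 or 814). In each comparison the highest share of all genes was that without mouse 817. Some differences that did not pass changed sign when 1 mouse was left out. Tnfrsf1a ranged from -0.17 to 0.15 in HF-SC GFP (also 0.0031 without 817), -0.25 to 0.078 in HF-SC Tom, -0.040 to 0.21 in b-KC GFP against Tom and -0.034 to 0.32 in Co against Co. Nfkbia ranged from -0.17 to 0.089 in HF-SC GFP, Tnip1 from -0.14 to 0.13 in b-KC GFP (also 0.057 without 828) and from -0.053 to 0.057 in HF-SC GFP against Tom, and Nfkb2 from -0.15 to 0.014 in b-KC Tom. Of the other single-member values, 1148 kept direction and side of the threshold, 95 lost a call and 36 gained one. The cause of these changes was not tested.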
